A study of Mus musculus with 10 samples.

Results

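Ribosome biogenesis and nucleolar genes were examined in bulk RNA of KPN1.1 tumors, as a list of 51 genes chosen by gene symbol. All 51 were found among the 55401 rows of the count table, and all 51 passed the filter on low counts, as did 17464 genes in all. KPN1.1 is a mouse lung adenocarcinoma line. Each of 10 obese male C57BL/6J mice on a high-fat diet, 7 to 17 weeks old at injection, had received 75000 cells under the skin of the flank. Once tumors could be felt, 5 mice were given liraglutide, an agonist of the glucagon-like peptide-1 receptor, at 0.2 μg/g body weight daily by intraperitoneal injection, and the other 5 mice the PBS vehicle. Tumors were taken between days 19 and 22, and RNA of 1 frozen fragment per tumor was depleted of ribosomal RNA and sequenced. All tumors thus came from 1 cell line placed outside the lung, and a fragment held host cells too.

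Ribosomes are assembled in the nucleolus. RNA polymerase I transcribes the long precursor of the ribosomal RNAs, small nucleolar ribonucleoproteins (snoRNPs) modify it, and assembly factors fold and cleave it into the precursors of the small (40S) and large (60S) subunits. Growing and dividing cells carry out much of this work, and the transcription factor MYC is known to drive many of these genes, often through the E-box sequence in their promoters. In RNA depleted of ribosomal RNA the product of this pathway is not seen, so the measurements here are of the messenger RNAs of its machinery. In bulk RNA, fewer cells of a type and less RNA per cell cannot be told apart.

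Total counts lay between 9927942 and 14480593 per tumor, and values are given as CPM, counts brought to a common library size after scaling by the TMM method. A count of 3, taken as the least that can be seen, came to between 0.207 and 0.315 CPM, and every member had at least 122 counts in every tumor, so the spread between tumors and not the depth limits these values. Epithelial keratin Krt8 was at 1631 CPM or more in every tumor, and the lung lineage factor Nkx2-1 was at 17.7 to 95.4 CPM with vehicle and 52.2 to 132 CPM with liraglutide. Of the other epithelial and lung markers listed, Krt18, Krt19 and Cdh1 were at 560 CPM or more in every tumor, Hnf4a, a factor of liver and gut lineages, at 171 to 390 CPM, while Epcam was at 4.63 CPM or less, Cldn4 at 0.979 CPM or less and the surfactant gene Sftpc at 5.96 CPM or less. Tumors stood apart from their own group for the members. Among the vehicle tumors Vehicle 4 was the lowest in 34 of the 51 members, and among the liraglutide tumors Liraglutide 2 was the highest in 34 of 51. Liraglutide 2 also had the highest summed epidermal markers, 225 CPM over 7 listed genes, of which 1 (Lor) had no row in the table. Liraglutide 4 was at 84.2 CPM and Liraglutide 5 at 53.4 CPM in these markers, Liraglutide 1 and 3 at 6.82 and 6.90 CPM, and the vehicle tumors at 8.50 to 19.4 CPM. Values without Vehicle 4 and without Liraglutide 2 are given for the count of members at an unadjusted p under 0.05 and for the member score, and without 1 or both of them for several role classes and members.

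The members were lower in liraglutide tumors on balance, by small amounts, and none passed the test. Of the 51 members, 47 (92.2%) had a log2 fold change below 0, where 52.6% of all genes tested had one. The median log2 fold change, liraglutide over vehicle, was -0.16 over the members and -0.02 over all genes tested. With edgeR's quasi-likelihood test and Benjamini-Hochberg adjustment over all genes, 0 members had an adjusted p under 0.05, and neither had any other gene (0% of 17464). The smallest adjusted p of a member was 0.482. At an unadjusted p under 0.05, 11 of the 51 members were lower (21.6%), against 5.62% of all genes, and 0 were higher, against 3.97% of all genes. The 5 liraglutide tumors lay below all 5 vehicle tumors in 2 members, Nop58 and Nip7 (3.92%), where 0.888% of all genes did. Without Vehicle 4 the count of members at an unadjusted p under 0.05 was 18, and without Liraglutide 2 it was 15, where 8.06% and 7.95% of all genes were lower at that level. Without Liraglutide 5 it was 5, beside 2.99% of all genes. DESeq2, fitted on the 35141 genes with at least 1 count, gave an adjusted p to 3796 of them after its own filter on low means. Of these, 52 (1.37%) had one under 0.05, among them 1 member, Nop58 (adjusted p = 0.0432), of the 18 members given one. Nip7, Nhp2, Pno1, Brix1, Mrto4 and Polr1d were not given one. Fitted on the 17464 genes kept for edgeR, a choice made after seeing the data, DESeq2 gave an adjusted p under 0.05 to 102 of 4254 genes (2.4%) and again to 1 member, Nop58 (adjusted p = 0.0294), of 23.

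**Figure D1:**
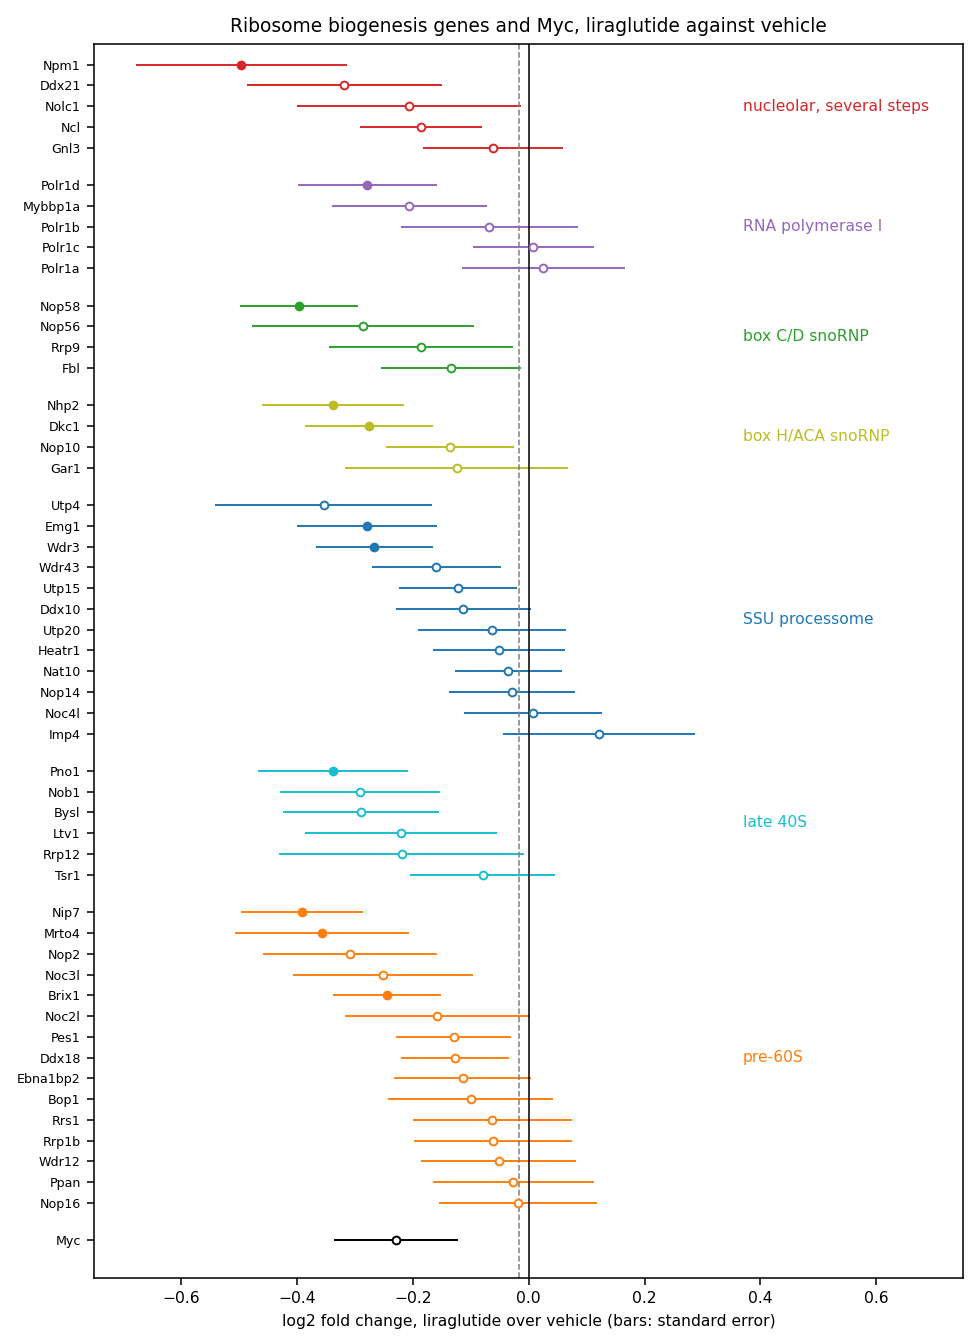
Log2 fold change, liraglutide over vehicle, of the 51 members by role and of Myc, with bars for the standard error of the fit. Filled points have an unadjusted p under 0.05, the solid line marks 0 and the dashed line the median of all genes tested, -0.02. A total of 47 members lie left of 0, Npm1 lies farthest left at -0.50, and Imp4 farthest right at 0.12.

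Myc (ENSMUSG00000022346.16), the transcription factor gene set beside the members, was at 142, 154, 144, 110 and 135 CPM in Vehicle 1 to 5 and at 117, 131, 117, 103 and 116 CPM in Liraglutide 1 to 5. The groups overlapped, with Vehicle 4 below 4 of the 5 liraglutide tumors. Its log2 fold change was -0.23 (standard error 0.11, edgeR adjusted p = 0.529), or -0.15 with 1 surrogate variable. Of the wider MYC network of partners and antagonists, 11 of 12 listed genes were tested with Myc itself (median log2 fold change -0.06), and the 10 without Myc were lower in 5 and higher in 5. Only Mxd1, which encodes a MAX partner that opposes MYC, had an unadjusted p under 0.05 among these 11, with a log2 fold change of -0.49 (standard error 0.16, edgeR adjusted p = 0.482).

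Members of the box C/D snoRNP, the particle that methylates the ribosomal RNA precursor, were lower in 4 of 4 (median log2 fold change -0.24). The median lay between -0.33 without Vehicle 4 and -0.11 with 1 surrogate variable over the alternatives tried. Nop58 (ENSMUSG00000026020.9), a core protein of that particle, had the smallest p of all members and was also the most abundant of the 4 per kilobase of coding sequence, at 91.1 CPM per kilobase. It was at 167, 161, 171, 154 and 180 CPM in Vehicle 1 to 5 and at 122, 150, 116, 135 and 110 CPM in Liraglutide 1 to 5. Every liraglutide tumor was below every vehicle tumor, with the gap between Vehicle 4 at 154 and Liraglutide 2 at 150 CPM. The log2 fold change was -0.40 (standard error 0.10, edgeR adjusted p = 0.482), and the exact permutation test of log2 CPM gave p = 0.00794, the smallest that 5 against 5 allow. Any gene without overlap between the groups is given that p, so it adds nothing to the lack of overlap. Its partner Nop56 had a log2 fold change of -0.29 with a wider standard error of 0.19, and Liraglutide 2, at 155 CPM, was above all 5 vehicle tumors. It was at -0.46 without Liraglutide 2 and at -0.10 with 1 surrogate variable. Fbl, the methyltransferase fibrillarin, was at -0.13, or -0.21 without Vehicle 4 and -0.09 with 1 surrogate variable. Rrp9, which binds the U3 snoRNA, was at -0.19.

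Members of the box H/ACA snoRNP, which turns uridines of the precursor into pseudouridine, were also lower in 4 of 4, with a median of -0.21, which ran from -0.30 without Liraglutide 2 to -0.15 with library size alone. Nhp2 (ENSMUSG00000001056.3), a core protein, was at 43.1, 37.5, 39.4, 35.6 and 40.4 CPM in Vehicle 1 to 5 and at 28.2, 40.2, 27.3, 29.9 and 29.3 CPM in Liraglutide 1 to 5. The vehicle tumors lay above all liraglutide tumors but Liraglutide 2, with a log2 fold change of -0.34 (standard error 0.12, edgeR adjusted p = 0.482). The log2 fold change was -0.44 without Liraglutide 2 and -0.28 with 1 surrogate variable. Dkc1, the pseudouridine synthase dyskerin, was at 83.0, 67.0, 82.3, 67.7 and 72.9 CPM with vehicle and at 60.1, 74.0, 57.7, 62.1 and 54.3 CPM with liraglutide, in the order of the tumor numbers. Here too Liraglutide 2 was the liraglutide tumor inside the vehicle range (log2 fold change -0.28, standard error 0.11, edgeR adjusted p = 0.503). Nop10, the smallest core protein and the member of this particle most abundant per kilobase of coding sequence, was at 26.1, 31.5, 29.1, 28.3 and 23.9 CPM with vehicle and at 24.3, 26.9, 28.4, 24.2 and 22.6 CPM with liraglutide. Its groups overlapped over most of their range, with a log2 fold change of -0.14 (standard error 0.11), or -0.09 without Vehicle 2, and Gar1 was at -0.12 (standard error 0.19). Gar1 moved to -0.26 without Liraglutide 2 and to 0.01 with 1 surrogate variable, where 3 of the 4 members were lower.

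Of 5 nucleolar proteins that act at several steps, 5 were lower (median log2 fold change -0.21). The median was -0.35 without Liraglutide 2, -0.33 without Vehicle 4 and, nearest to 0 among the alternatives, -0.15 with 1 surrogate variable. Npm1 (ENSMUSG00000057113.13) encodes nucleophosmin, a chaperone that forms the outer layer of the nucleolus, and was the most abundant member per kilobase of coding sequence, at 1101 CPM per kilobase. It was at 1236, 1428, 1228, 915 and 835 CPM in Vehicle 1 to 5 and at 852, 1079, 651, 757 and 661 CPM in Liraglutide 1 to 5. The vehicle tumors spread from 835 to 1428 CPM, and 3 liraglutide tumors were below all of them. The log2 fold change was -0.50, with a standard error of 0.18 (edgeR adjusted p = 0.484), the lowest of the members in this fit. With 1 surrogate variable it was -0.28, where Nop58 was at -0.36, and without Vehicle 2 it was -0.40, where Nop58 was at -0.41. Npm1 has many processed pseudogenes, and how reads shared with them were counted was not given in the sources used here. Ncl, nucleolin, stood next in level at 396 CPM per kilobase, with a log2 fold change of -0.19 (standard error 0.11). The helicase Ddx21 was at -0.32 (standard error 0.17), Nolc1, a snoRNP chaperone, at -0.21 (standard error 0.19), and Gnl3, the GTPase nucleostemin, at -0.06 (standard error 0.12). Nolc1 was at -0.35 without Liraglutide 2, -0.33 without Vehicle 4 and -0.01 with 1 surrogate variable. Without Vehicle 3, 4 of these 5 proteins were lower.

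Of the RNA polymerase I genes 3 of 5 were lower, and the median log2 fold change was -0.07. This median moved either way when a tumor was left out, to -0.15 without Vehicle 4, -0.13 without Vehicle 5, -0.04 without Liraglutide 5 and -0.03 without Vehicle 1. It was -0.03 with 1 surrogate variable and -0.01 with library size alone, and 5 of 5 were lower without Vehicle 3. Polr1a, the largest catalytic subunit, was at 0.03 (standard error 0.14) and Polr1b, its catalytic partner, at -0.07 (standard error 0.15). The 95% interval for Polr1a ran from -0.30 to 0.35. Polr1c and Polr1d are shared with RNA polymerase III and were at 0.01 and -0.28. Polr1d, at 136 CPM per kilobase of coding sequence the most abundant of the 5, was at 62.1, 62.1, 68.1, 55.6 and 50.2 CPM in Vehicle 1 to 5 and at 54.0, 55.6, 49.6, 39.7 and 46.9 CPM in Liraglutide 1 to 5. The groups overlapped between 50.2 and 55.6 CPM, and edgeR's adjusted p was 0.515. Mybbp1a, which binds MYB and acts in the nucleolus, had a log2 fold change of -0.21 (standard error 0.13), or -0.08 with 1 surrogate variable.

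**Figure D2:**
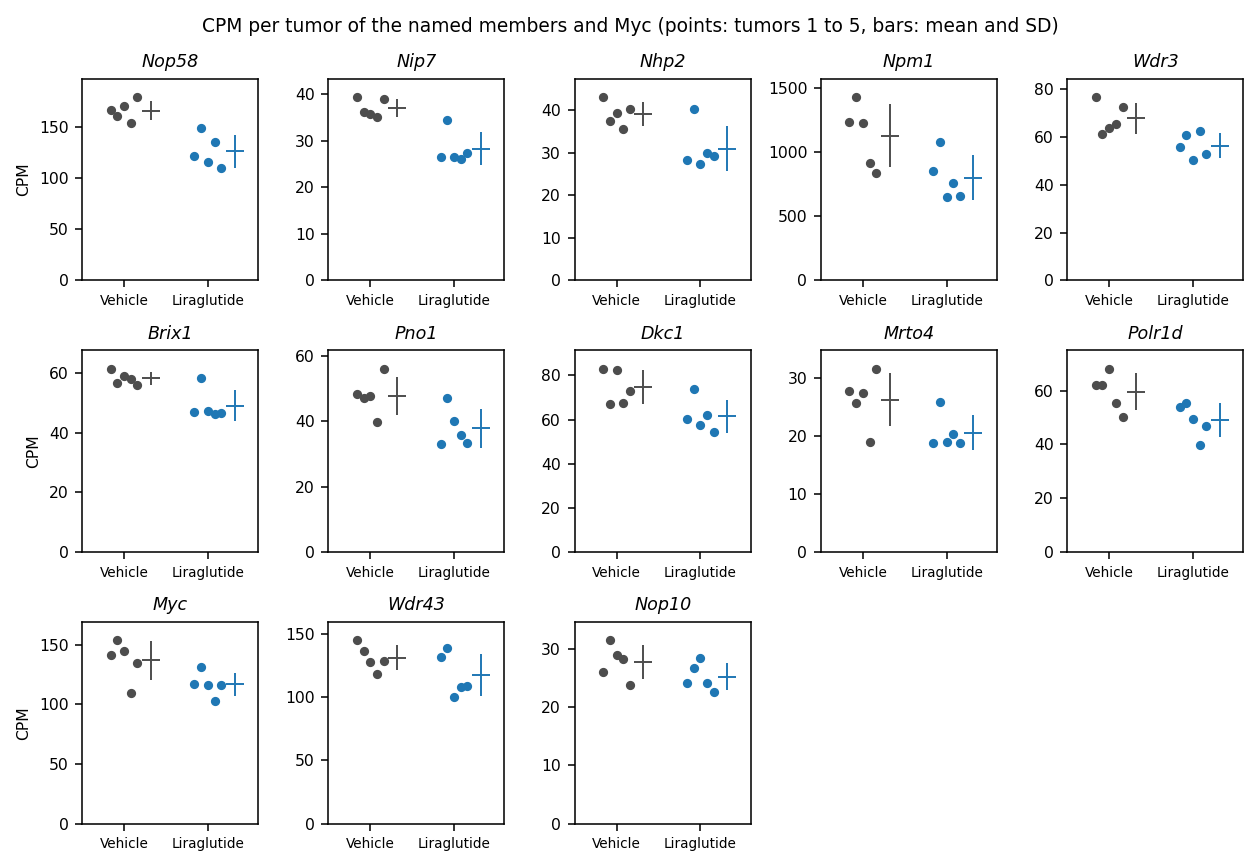
CPM of the named members and of Myc in each tumor, with bars for mean and SD of each group (n = 5) and a linear axis from 0 in each panel, ordered by unadjusted p. In Nop58 and Nip7 no liraglutide tumor reaches a vehicle tumor. In Nhp2 and Brix1, 1 liraglutide tumor (Liraglutide 2, at 40.2 and 58.5 CPM) lies among the vehicle tumors.

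On the path to the small subunit, the 12 members of the SSU processome, the large complex that folds and cuts the early precursor around the U3 snoRNA, were lower in 10, with a median of -0.09. The median was -0.14 without Liraglutide 2, -0.05 without Vehicle 1 and -0.03 without Liraglutide 5 or with library size alone, and the number lower ran from 7 with library size alone and 8 without Vehicle 5 to 11. Wdr43, its member most abundant per kilobase of coding sequence, was at 145, 136, 128, 118 and 129 CPM in Vehicle 1 to 5 and at 132, 139, 100.2, 108 and 109 CPM in Liraglutide 1 to 5. The groups overlapped, with 3 liraglutide tumors below the vehicle range and the other two inside it (log2 fold change -0.16, standard error 0.11), and the log2 fold change was -0.10 without Liraglutide 3 and -0.08 with 1 surrogate variable. Wdr3, a scaffold protein of the same complex, was at 76.8, 61.2, 63.7, 65.4 and 72.7 CPM with vehicle and at 55.8, 61.1, 50.3, 62.6 and 52.8 CPM with liraglutide. The liraglutide tumors lay below the vehicle range, with Liraglutide 4 the exception (log2 fold change -0.27, standard error 0.10, edgeR adjusted p = 0.499). The lowest log2 fold change of the complex, -0.35 in Utp4, had a standard error of 0.19, and Vehicle 4, at 35.3 CPM, was the lowest of all 10 tumors, while the other vehicle tumors were at 64.9 CPM or more. Without Vehicle 4 it was -0.49 (standard error 0.12, edgeR adjusted p = 0.168) and with 1 surrogate variable -0.19 (standard error 0.15, edgeR adjusted p = 0.677). Emg1, a methyltransferase that modifies the small subunit RNA, was at -0.28 (standard error 0.12), but 77% of its coding sequence lies opposite exons of Lpcat3, and the strand setting of the counting was not given in the sources used here. Imp4, a U3 snoRNP protein, was at 0.12, with a 95% interval from -0.26 to 0.50, and at -0.01 with 1 surrogate variable. The remaining members of the complex were between -0.12 (Utp15) and 0.01 (Noc4l).

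Members that act later on the 40S precursor were lower in 6 of 6, with a median of -0.26. The median was -0.34 without Vehicle 4 and -0.13 without Vehicle 5, and with 1 surrogate variable 5 of the 6 were lower. Pno1, an RNA-binding partner of the nuclease Nob1, was both the most abundant of the 6 per kilobase of coding sequence and the one with the smallest p. It was at 48.4, 47.1, 47.8, 39.7 and 56.0 CPM in Vehicle 1 to 5 and at 33.0, 47.0, 40.1, 35.8 and 33.2 CPM in Liraglutide 1 to 5. Vehicle 4 was the lowest vehicle tumor and Liraglutide 2 the highest liraglutide tumor, and the groups overlapped between 39.7 and 47.0 CPM (log2 fold change -0.34, standard error 0.13, edgeR adjusted p = 0.499). Nob1, which makes the last cut at the end of the small subunit RNA, and Bysl, an assembly factor of the same precursor, were both at -0.29 with standard errors of 0.14 and 0.13. Ltv1 and Rrp12, export and maturation factors, were both at -0.22, and Tsr1 was at -0.08, with 38.0% of its coding sequence opposite exons of Srr. Tsr1 was at -0.16 without Liraglutide 2 and at 0.01 with 1 surrogate variable.

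On the path to the large subunit all 15 members had a log2 fold change below 0, with a median of -0.13. The number lower was 13 without Vehicle 4, where Nop16 (0.04) and Wdr12 (0.03) were above 0, 12 without Vehicle 5 and with library size alone, and 14 with 1 surrogate variable, where Ppan was at 0.09. The median ran from -0.16 without Liraglutide 2 to -0.07 with library size alone. Nip7 (ENSMUSG00000031917.12), which binds the 60S precursor, was the most abundant of the 15 per kilobase of coding sequence, at 60.5 CPM per kilobase. It was at 39.4, 36.1, 35.8, 35.1 and 39.02 CPM in Vehicle 1 to 5 and at 26.6, 34.5, 26.6, 26.2 and 27.4 CPM in Liraglutide 1 to 5. A total of 4 liraglutide tumors lay between 26.2 and 27.4 CPM, and Liraglutide 2 lay just under the lowest vehicle tumor. The log2 fold change was -0.39 (standard error 0.10, edgeR adjusted p = 0.482), with an exact permutation p of 0.00794, which again follows from the lack of overlap. Brix1, an early 60S factor, was at 61.5, 56.6, 58.9, 58.2 and 56.0 CPM with vehicle and at 46.9, 58.5, 47.5, 46.3 and 46.5 CPM with liraglutide. Its vehicle tumors lay close together, and only Liraglutide 2 of the liraglutide tumors reached them (log2 fold change -0.24, standard error 0.09, edgeR adjusted p = 0.499). Mrto4, which holds the place of the ribosomal stalk protein, was at 27.7, 25.8, 27.4, 18.99 and 31.6 CPM with vehicle and at 18.7, 25.8, 18.95, 20.4 and 18.8 CPM with liraglutide. Vehicle 4 and Liraglutide 2 each lay inside the range of the other group (log2 fold change -0.36, standard error 0.15, edgeR adjusted p = 0.512). Without Vehicle 4 the log2 fold change was -0.45 and without Liraglutide 2 it was -0.44. It was -0.28 without Vehicle 5 and -0.30 with library size alone. Nop2, a methyltransferase of the large subunit RNA, was at -0.31 (standard error 0.15). The 3 proteins of the PeBoW complex, which is needed to process the large subunit RNA, were at -0.10 (Bop1), -0.13 (Pes1) and -0.05 (Wdr12). Rrs1 was at -0.06, with 69.4% of its coding sequence opposite a noncoding gene.

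The differences did not fall on every tumor alike. Each tumor was given a member score, the mean over the 51 members of log2 CPM (prior count 2) after each gene was set to mean 0 and SD 1 over the 10 tumors. The score was 0.73, 0.14, 0.60, -0.53 and 0.85 in Vehicle 1 to 5 and -0.37, 0.54, -0.70, -0.38 and -0.89 in Liraglutide 1 to 5. Vehicle 4 thus lay among the liraglutide tumors and Liraglutide 2 among the vehicle tumors, and the group means differed by -0.72, beside a within-group SD of 0.56. With the score set anew, the difference was -0.94 without Vehicle 4 and -0.90 without Liraglutide 2. Over all single tumors left out it lay between -0.94 and -0.59. Over the 7 other alternatives it lay between -0.72 and -0.50. Without Vehicle 4, 15 of the 51 members lay more than 1.5 times farther from 0 in log2 fold change and 4 changed sign, and without Liraglutide 2 these counts were 16 and 2. The 15 without Vehicle 4 included Nolc1, Fbl, Gar1, Rrp12, Bop1 and Noc2l, and the 16 without Liraglutide 2 included Nolc1, Nop56, Gar1, Noc2l and Noc3l. Leaving out other tumors moved members either way. More than 1.5 times nearer to 0 lay 14 members without Vehicle 1 and 12 without Liraglutide 5, Rrp9 in both, and 9 without Liraglutide 3. Without Vehicle 3 it was 8, among them Ncl, and without Vehicle 5 also 8, among them Ddx21, Ltv1 and Bysl. Without Vehicle 2, 7 members lay that much farther from 0 and 4 nearer. These counts were 5 and 2 without Liraglutide 4, and 4 and 4 without Liraglutide 1. With library size alone 17 members lay that much nearer and 6 changed sign. With 1 surrogate variable 12 members lay more than 1.5 times nearer to 0 and 8 changed sign, which were Polr1b, Polr1c, Gar1, Nop14, Imp4, Nat10, Tsr1 and Ppan. Liraglutide 3 and Liraglutide 5 were each below the median of the 10 tumors in 45 of the 51 members, Vehicle 5 in 6 and Vehicle 3 in 7. The members together took 0.433% to 0.537% of all counts in vehicle tumors and 0.394% to 0.506% in liraglutide tumors.

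**Figure D3:**
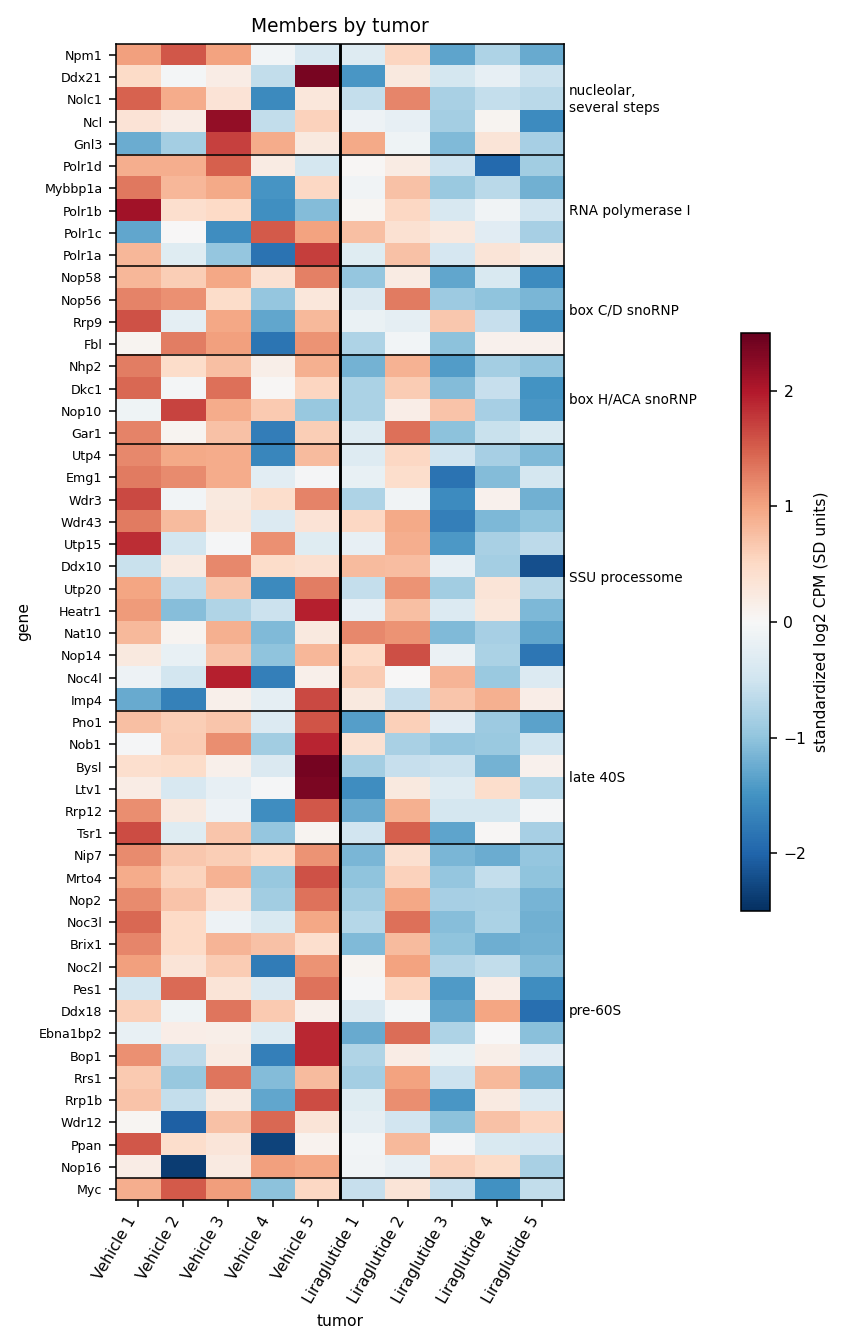
Standardized log2 CPM of the 51 members, grouped by role, and of Myc (bottom row) in each of the 10 tumors, where red is above and blue below the mean of the gene in SD units and the vertical line parts vehicle from liraglutide tumors. The column of Vehicle 4 is mostly blue and that of Liraglutide 2 mostly red, as with 34 members lowest and 34 members highest within their groups.

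The tumors fell into the same 2 sets of 5 by Myc and by the member score. The 5 tumors with the highest Myc, 131 CPM or more, were Vehicle 1, 2, 3 and 5 and Liraglutide 2, and these 5 also had the 5 highest member scores, 0.14 or more. The other 5 tumors had Myc at 117 CPM or less and member scores of -0.37 or less. Within the sets the order differed. Vehicle 2 had the highest Myc, 154 CPM, with the lowest score of its set, and Liraglutide 4 had the lowest Myc of all, 103 CPM, with a score of -0.38, close to the highest of its set. With the tumors in separate sets of 5, a correlation over the 10 tumors is not given, and a relation within a set was not tested.

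Markers of dividing cells lay in the same direction as the members. The summed CPM of 15 proliferation genes was 2601, 2793, 2804, 1399 and 2261 in Vehicle 1 to 5 and 1710, 2618, 1757, 1777 and 1671 in Liraglutide 1 to 5, which parts the tumors into the same sets as Myc. All 15 of these genes had a log2 fold change below 0, with a median of -0.36, and 2 of them (Ccnb1 and Rrm2) had an unadjusted p under 0.05. Leukocyte markers lay the other way, with 12 of the 13 tested of 16 listed genes higher, none of them at an unadjusted p under 0.05, and a summed level of 240 to 452 CPM with vehicle and 283 to 507 CPM with liraglutide. Vehicle 4, at 452 CPM, was the highest vehicle tumor, while Liraglutide 2, at 286 CPM, was close to the lowest liraglutide tumor, at 283 CPM. The natural killer cell marker Ncr1 was at 0 in 1 tumor. Of 10 fibroblast markers, 6 were higher, 2 of them (Pdgfrb and Thy1) at an unadjusted p under 0.05, with summed levels of 1749 to 4107 CPM with vehicle and 2379 to 4027 CPM with liraglutide. Of 7 endothelial markers, 3 were higher and 1 of the 4 lower ones (Vwf) had an unadjusted p under 0.05, at 102 to 167 CPM and 105 to 131 CPM in sum. Of 9 skeletal muscle markers, 9 were higher, 1 of them (Myh1) at an unadjusted p under 0.05, at 43.9 to 283 CPM and 96.5 to 372 CPM. Of the epidermal markers, 4 could be tested and 4 were higher, with a median log2 fold change of 2.96, and 3 of them (Krt5, Krt14 and Krt1) had an unadjusted p under 0.05, with Krt5 at 0 in 4 tumors and Krt1 at 0 in 5. The adipocyte markers summed to 15.3 to 83.2 CPM and 18.4 to 47.7 CPM, with 3 of 3 tested lower and Lep at 0 in 3 tumors. Of the epithelial and lung markers, 8 of 10 could be tested and 5 were higher, 1 of them (Nkx2-1) at an unadjusted p under 0.05, and Sox2 was at 0 in 9 tumors. The part of cell composition and of cell division in the members' differences was not tested.

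**Figure D4:**
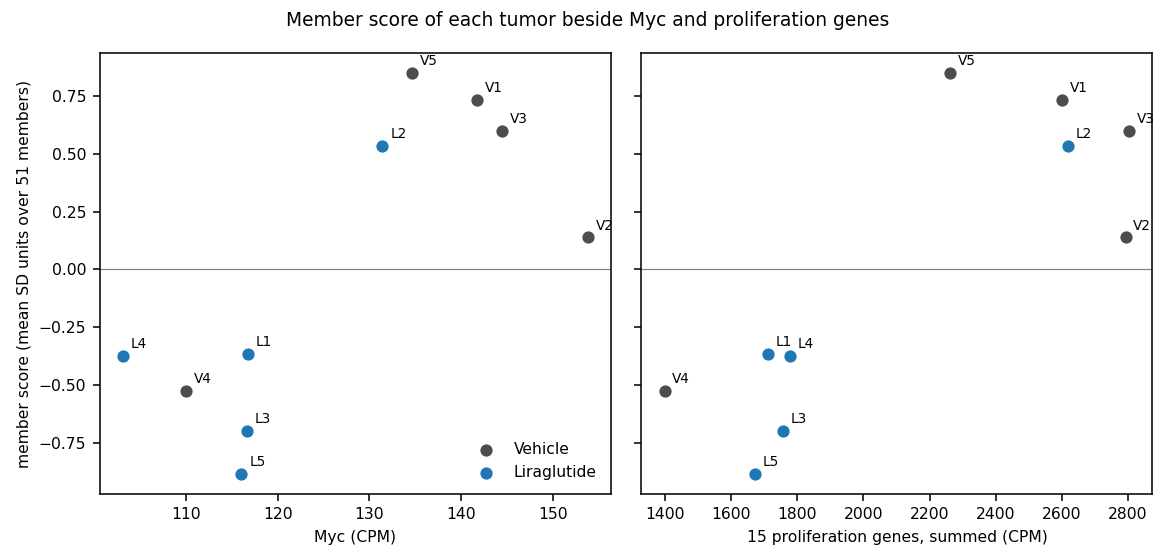
Member score of each tumor (mean standardized log2 CPM over 51 members) against Myc in CPM (left) and against the summed CPM of 15 proliferation genes (right), with vehicle tumors (V1 to V5) in grey and liraglutide tumors (L1 to L5) in blue. In both panels Vehicle 4, at a score of -0.53, sits with 4 liraglutide tumors, and Liraglutide 2, at 0.54, with 4 vehicle tumors.

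Other ribosome biogenesis genes, 135 listed by role and 133 of them tested, lay in the same direction. Of the 133, 115 (86.5%) had a log2 fold change below 0, the median was -0.14, and 16 (12.0%) were lower and 0 higher at an unadjusted p under 0.05, beside 5.62% and 3.97% of all genes. In 4 of them (3.01%) the liraglutide tumors lay below all vehicle tumors, beside 0.888% of all genes. Nmd3, the adapter that exports the 60S precursor from the nucleus, was at 72.3, 71.1, 68.1, 78.4 and 73.6 CPM in Vehicle 1 to 5 and at 54.9, 62.6, 60.3, 61.5 and 55.9 CPM in Liraglutide 1 to 5. Unlike in most members, Vehicle 4 was the highest vehicle tumor here, and no tumors overlapped (log2 fold change -0.30, standard error 0.08, edgeR adjusted p = 0.482). Rsl1d1, a nucleolar protein of the large subunit path, was at 166, 181, 170, 158 and 158 CPM with vehicle and at 136, 154, 118, 128 and 126 CPM with liraglutide, again with no overlap (log2 fold change -0.33, standard error 0.09, edgeR adjusted p = 0.482). Nsa2, a 60S assembly factor, was at 112, 122, 119, 120.2 and 95.0 CPM with vehicle and at 84.1, 101, 83.9, 94.0 and 77.6 CPM with liraglutide. Only Liraglutide 2 was inside the vehicle range, and the log2 fold change was -0.37 (standard error 0.10, edgeR adjusted p = 0.482).

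The higher genes with the smallest p in these lists were Polr1g, Efl1 and Exosc7, and none of them had an unadjusted p under 0.05. Polr1g, a subunit of RNA polymerase I, was at 16.99, 13.9, 12.7, 12.8 and 17.02 CPM in Vehicle 1 to 5 and at 15.03, 17.6, 18.3, 19.6 and 16.3 CPM in Liraglutide 1 to 5. The groups overlapped, with a log2 fold change of 0.24 (standard error 0.13, edgeR adjusted p = 0.579). Efl1, a GTPase that frees the 60S subunit of its last assembly factor, was at 46.0, 47.9, 42.2, 41.8 and 52.5 CPM with vehicle and at 49.3, 50.4, 53.1, 52.0 and 52.0 CPM with liraglutide. Its liraglutide tumors spread over less than its vehicle tumors, and the log2 fold change was 0.16 (standard error 0.09, edgeR adjusted p = 0.593). Exosc7, a subunit of the RNA exosome, was at 9.12, 6.29, 13.9, 11.5 and 13.9 CPM with vehicle and at 12.1, 10.6, 13.9, 13.04 and 18.0 CPM with liraglutide. Its groups overlapped and the log2 fold change was 0.31 (standard error 0.23, edgeR adjusted p = 0.664).

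By role, the medians of the further genes were -0.11 for RNA polymerase I (12 of 15 lower), -0.24 for snoRNPs (8 of 8 lower), -0.11 for the 40S path (38 of 45 lower), -0.14 for the 60S path (45 of 50 lower) and -0.20 for the exosome and nucleases (12 of 15 lower).

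Because MYC binds the E-box CACGTG, which reads the same on both strands, the RefSeq promoter windows of the members were searched for it. A window holds 250 bases before the start of transcription and 50 bases from it, on GRCm38.p6, and 46 of the 51 members had one. The E-box was in windows of 10 members (21.7%), which were Mybbp1a, Utp4, Utp20, Wdr43, Imp4, Tsr1, Ltv1, Pno1, Nop2 and Pes1, where 8.09% of all 27025 genes with a window and 8.91% of protein-coding ones held it. The 10 had a median log2 fold change of -0.18, and the 36 members with a window and without the E-box had -0.15. At an unadjusted p under 0.05 were 1 of the 10 (Pno1) and 9 of the 36, all of them lower, beside 5.62% of all genes tested. The windows of Nop58 and Nip7, the members in which the groups did not overlap, do not hold these letters, and that of Utp4, the lowest of the 10 by log2 fold change, does. The windows of these 3 members are shown 5′ to 3′ on the strand of the gene (plus for all 3), with an E-box in capitals.
Nop58, chr1:59684756-59685055: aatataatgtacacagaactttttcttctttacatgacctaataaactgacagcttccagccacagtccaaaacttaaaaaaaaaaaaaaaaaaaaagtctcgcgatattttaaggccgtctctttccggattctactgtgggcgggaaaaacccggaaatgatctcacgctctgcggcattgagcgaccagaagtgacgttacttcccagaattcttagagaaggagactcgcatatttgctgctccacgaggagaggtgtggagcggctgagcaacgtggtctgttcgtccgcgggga
Nip7, chr8:107056627-107056926: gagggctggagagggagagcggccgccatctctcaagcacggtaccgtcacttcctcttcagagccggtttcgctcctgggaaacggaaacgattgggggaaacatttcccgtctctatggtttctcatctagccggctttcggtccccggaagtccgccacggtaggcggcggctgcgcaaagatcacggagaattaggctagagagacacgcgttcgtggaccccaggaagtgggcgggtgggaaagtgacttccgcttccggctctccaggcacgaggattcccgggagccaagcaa
Utp4, chr8:106893390-106893689: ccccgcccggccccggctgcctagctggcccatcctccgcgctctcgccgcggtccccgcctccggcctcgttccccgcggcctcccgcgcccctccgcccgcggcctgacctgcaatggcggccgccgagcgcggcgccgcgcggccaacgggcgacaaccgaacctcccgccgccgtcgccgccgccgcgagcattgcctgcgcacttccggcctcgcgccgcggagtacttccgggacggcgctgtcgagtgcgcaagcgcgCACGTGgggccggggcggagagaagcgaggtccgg

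In Utp4 the E-box begins at base 16 counted from the start of transcription as base 1. Of the other members with an E-box, Pno1 had the smallest p and Imp4 was the one with a log2 fold change above 0, and Wdr43 was the most abundant of the SSU processome per kilobase. Their E-boxes, in capitals, are shown with up to 20 bases on either side within the window, 5′ to 3′ on the strand of the gene.
Pno1, chr11:17211540-17211572, minus strand: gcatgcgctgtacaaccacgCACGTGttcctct
Imp4, chr1:34439688-34439733, plus strand: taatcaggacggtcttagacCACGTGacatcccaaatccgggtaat
Wdr43, chr17:71616212-71616257, plus strand: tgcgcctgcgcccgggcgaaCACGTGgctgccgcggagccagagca

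The E-box begins at base 38 in Pno1 and base 18 in Wdr43 counted from the start of transcription, and 121 bases before it in Imp4. The log2 fold changes of these 3 members were -0.34, 0.12 and -0.16. A match is a description of these letters and not of binding, which was not measured.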

How the data were processed

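RNA of 10 KPN1.1 tumors was analysed, 5 Vehicle and 5 Liraglutide, grouped by sample title. The authors demultiplexed the read pairs, checked them with FastQC, mapped them with Bowtie and TopHat, counted them per gene with featureCounts and kept 10 samples after quality assessment. The deposited values were raw counts without normalization, by versioned Ensembl identifier. The methods name the mouse build GRCm39, whereas the submitters' processing notes list GRCh38 and mm10, so no gene positions are taken from the counts. The annotation release, strand setting and handling of reads with several matches were not given in the sources used here. Of the 55401 rows, 51731 (93.4%), holding 98.3% of the counts, matched a GENCODE M39 gene once the version was dropped, and M39 gave symbols, coding lengths and overlaps. Promoter windows came from RefSeq (GRCm38.p6), and 46 members matched by symbol.

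Genes were filtered with filterByExpr in edgeR 4.0.16 (R 4.3.3), scaled by TMM (factors 0.951 to 1.05) and compared between treatments by its quasi-likelihood test, with no covariate and with Benjamini-Hochberg adjustment over all 17464 genes at 0.05. Floors of 3 counts cover counting error alone. The chi-square per degree of freedom between any pair of tumors in a group was 9.34 or more, where counting error alone would give about 1. Whether tumors of a group came from separate litters or cages was not given in the sources used here. The p-values set the group difference against the spread between these tumors. Log2 fold changes are on the fitted scale of edgeR, and levels between genes are compared as CPM per kilobase of coding sequence. Counts per gene may include reads outside the coding sequence, so this measure can run high where the coding sequence is short, as in Nop10 and Polr1d. An exact permutation test (both sides) of log2 CPM was added for single genes, and p = 0.00794 is the smallest it can give. It gives this p to every gene whose groups do not overlap, and the p is not adjusted over genes. Methods were tested on simulated data. There 1 of 99 genes with a log2 change of 0.5 in size was called, 50 of 99 with a change of 1 and 2 of 16942 with none.

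The members, role classes, other gene lists and tests were chosen with earlier results of these data known, and no set test was run. Named with the value in every tumor are Myc, the member of each of the 7 role classes with the highest CPM per kilobase and that with the smallest p, the 10 members with the smallest p, and the 3 lower and 3 higher other biogenesis genes with the smallest p, 13 genes with Myc among the members. The promoters shown, Utp4, Nop56 and other members named for a wide spread were picked after their values were seen. Alternatives were DESeq2 1.42.0 (on all genes with a count or, added after seeing the data, on those kept by filterByExpr), voom in limma 3.58.1, library size alone or the size factors of DESeq2 in place of TMM, other filters on low counts, leaving out mitochondrial, ribosomal RNA and ribosomal protein genes, a replicate block, 1 surrogate variable (sva 3.50.0), robust empirical Bayes, a prior count of 0.5 and each tumor left out. The genotype of the line and 1 marker gene are not reported here.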

Additional observations from a re-analysis of the deposited data

Results flagged for a closer look

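In each of the 51 members, Myc and the member score, the 5 tumors of a group were searched for a tumor whose gap to its nearest neighbour took more than 0.71 of the range of the group. Of 106 groups, 14 (13.2%) held such a tumor, where chance gives about 1 in 20. Liraglutide 2 was far above the other liraglutide tumors in 9 members, with Nolc1 at 129 CPM, Nop56 at 155 CPM, Gar1 at 25.1 CPM, Nhp2 at 40.2 CPM, Nop2 at 81.1 CPM, Nip7 at 34.5 CPM, Brix1 at 58.5 CPM, Noc3l at 88.5 CPM and Mrto4 at 25.8 CPM. In Nolc1, for example, the next liraglutide tumor was at 84.8 CPM. These genes come from several role classes, from snoRNP proteins to 60S factors. Vehicle 5 was far above the other vehicle tumors in Ltv1 (37.1 CPM), Bysl (25.2 CPM) and Ebna1bp2 (64.9 CPM), of which Ltv1 and Bysl act on the 40S precursor. Vehicle 4 was far below the other vehicle tumors in Utp4, at 35.3 CPM against 64.9 CPM in the next, and Vehicle 2 in Nop16, at 16.4 CPM against 23.4 CPM. The member score itself held no such tumor in either group. The values of different genes in 1 tumor share its library, so these results are not independent of each other.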

How the results depend on the processing

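No member reversed its sign among the 12 named members under any of the 21 alternatives, and Myc kept a log2 fold change below 0, from -0.29 to -0.15. No gene was called in edgeR or limma-voom under any alternative. DESeq2 called 52 genes and 1 member, Nop58, at a log2 fold change of -0.39 (adjusted p = 0.0432), fitted on 35141 genes, and 33 members had no adjusted p there. On the 17464 genes kept for edgeR, added after seeing the data, it called 102 genes and 1 member, Nop58 (adjusted p = 0.0294), with 28 members given none. The adjusted p of Nop58 reached 0.620 with all genes of at least 1 count and 0.900 without Liraglutide 5. Members at an unadjusted p under 0.05 numbered 5 with library size alone, beside 3.54% of all genes lower at that level, 9 with 1 surrogate variable (6.09%) and 5 to 18 with a tumor left out, lowest without Liraglutide 5 (2.99%) and highest without Vehicle 4 (8.06%). They numbered 6 or 7 without any 1 of Vehicle 1, Vehicle 2, Vehicle 3, Liraglutide 3 and Liraglutide 4, beside 3.35% to 4.29% of all genes, and 15 without Liraglutide 2 (7.95%). Library size alone moved the median of all genes from -0.02 to 0.04 and the share of lower genes from 52.6% to 44.2%, with 41 members lower and a member median of -0.10, or -0.14 relative to all genes. The count of lower members lay between 41 and 49 and the member median between -0.22 and -0.10 over all alternatives. The median of the other biogenesis genes, whose alternatives were added after seeing the data, lay between -0.17 and -0.08.

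With the tumor number as a replicate block, 12 members had an unadjusted p under 0.05, beside 7.31% of all genes lower at that level, and 0 genes were called. Numbers were not taken to pair the tumors, since only 1 of 5 vehicle tumors matched its own number best. Correlations of the deviations of same-numbered pairs were 0.35, 0.57, -0.08, 0.07 and 0.39, over 0.1 in 3 of 5, so a pairing is not excluded. Deviations were taken from group means, so correlations over all pairs tend to cancel. The mean correlation was 0.26 at the same number and -0.07 at different numbers, and the member score was lower with liraglutide in 3 of 5 pairs, as was the members' share of all counts, while Myc and the members' summed CPM were lower in 5 of 5. The block changed no call. The alternatives planned for a correlation with Myc are not given, since no pooled correlation is reported. Leaving out 1 tumor changes the number of tumors and of genes tested, and beyond that the cause of these moves was not tested.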
